A study of Drosophila melanogaster with 6 samples.

Results

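A set of 74 protein-coding genes, out of 17559 genes counted, was expressed in control wing discs of *Drosophila* larvae and was at less than 20% of that level in discs with *Nup98-96* RNAi. The set was chosen by level, in CPM, the count of a gene divided by all counts of its library and scaled to 1000000 counts. All 3 control libraries had to lie over 3 CPM, and all 3 knockdown libraries under 20% of the lowest control library. Of 7070 genes over 3 CPM in every control library, 89 (1.26%) met this rule. Of these 89, 15 were set aside by name: *Hr3*, *Hr4*, *Blimp-1*, *sens*, *Eip78C*, *ImpE2*, *ImpE3*, 4 cuticle protein genes, 2 serpin genes and 2 noncoding genes. Because the rule used the difference between the groups, that difference is described below without a test.

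Every larva carried *UAS-P35*, *UAS-GFP*, *ap*-Gal4 and *tub*-Gal80TS, so that control and knockdown discs alike expressed P35, a baculovirus inhibitor of caspases. The control discs expressed *UAS-white* RNAi (JF01540) and the knockdown discs *UAS-Nup98* RNAi (HM05048). Gal80TS held Gal4 off at 18°C for 4 days, and Gal4 was then active at 28°C for 72 h until the larvae were dissected as they wandered in their last instar. *ap*-Gal4 acts in the dorsal compartment of the disc, whereas each library held polyadenylated RNA of 40 whole discs, ventral cells included. There were 3 libraries per group, named control 1 to 3 and knockdown 1 to 3. In RNA of whole discs, fewer cells of a type and less RNA per cell cannot be told apart.

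The wing disc is an epithelial sac that grows through larval life and then everts to make the wing and the dorsal thorax. Near the end of the last larval instar, pulses of the steroid hormone ecdysone act through a cascade of nuclear receptors, and the disc turns from growth to morphogenesis. Secreted and membrane proteases remodel its matrix, and zona pellucida proteins and mucins line its apical face. The protein encoded by the *Nup98-96* transcript is cleaved into a pair of nucleoporins that are parts of the nuclear pore.

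The libraries held between 70342787 and 110330112 counts in genes, so that the lowest control count of any member was 332 and the lowest knockdown count was 3. *Nup98-96* was at 337, 333 and 304 CPM in the control and 319, 305 and 315 CPM in the knockdown libraries, ranges that overlap, and reads of a transgene would be counted in them too. The disc markers *en*, *hh* and *ptc* were detected in every library, at 38.7 CPM or more. Control 1 stood apart by genes of the fat body, a separate larval organ. The larval serum protein gene *Lsp1beta* was at 1502 CPM in control 1, at 4.73 and 8.49 CPM in the other control libraries and at 29.0 to 50.2 CPM in the knockdown libraries. With control 1 left out the rule took 91 genes, all 74 members and 17 more. Leaving out a library can only loosen the rule, so no member could be lost and nothing is read from their being kept.

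The mean control level of the members ran from 4.38 CPM (*Grl36b*) to 564 CPM (*betaTub60D*), with a median of 33.9 CPM. Mean knockdown levels ran from 0.0873 to 63.8 CPM, with a median of 2.01 CPM. Some members were thus still well expressed after knockdown, *betaTub60D* at 53.9 to 72.1 CPM and *Fkbp14* at 27.5 to 34.6 CPM. The ratio of the group means lay between 5.61 and 300.3, with a median of 13.6. It was over 20 for 24 members, between 10 and 20 for 28 and under 10 for 22. All 74 passed the filter on low counts through their control counts. Some passed on their knockdown counts as well, such as *betaTub60D* with at least 4680 in each library. All 74 were called lower in knockdown discs, where 11% of the 7965 genes tested were called lower. This count follows from the rule and nothing is read from it. The members' log2 fold changes in that fit, from edgeR, ran from -8.25 to -2.50 with a median of -3.78, beside a median of 0.01 over all genes tested. Summed over the members, the control libraries held 3934, 5008 and 5889 CPM and the knockdown libraries 415, 411 and 398 CPM.

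**Figure D1:**
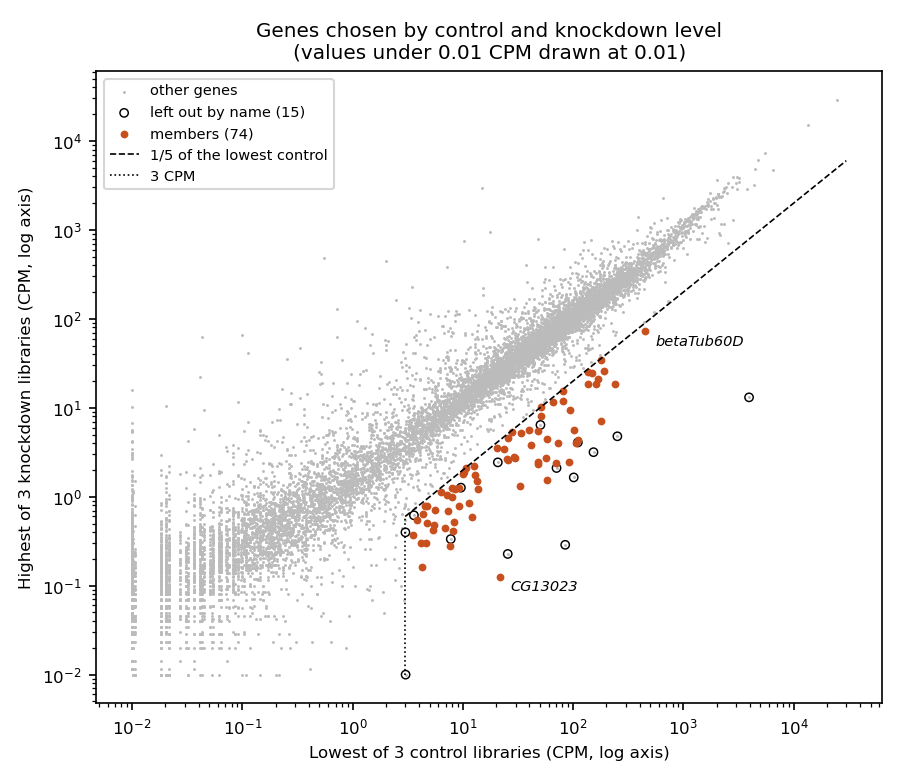
Each point is a gene, with its lowest level among the 3 control libraries on the x axis and its highest level among the 3 knockdown libraries on the y axis, both in CPM on log axes. The 74 members (filled) lie below the 20% line and to the right of 3 CPM, as the rule demands, with *CG13023* the lowest on the y axis, at 0.127 CPM beside 0.161 CPM for *CG15894*, and *betaTub60D* at the highest control level, and the 15 genes set aside by name are open circles.

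Near the 20% threshold the members graded into other genes. *Fkbp14* and *disco-r* were just inside, with the highest knockdown library at 19.4% of the lowest control library in each, and *kn* stood at 19.9%. Just outside were *Prip* at 20.2%, *regucalcin* at 21.8% and *Sox102F* at 22.02%. Near the control minimum, *Mur89F*, *Grl36b* and *CG13796* were the last members inside, with lowest control values of 3.55, 3.80 and 4.21 CPM. *CG6055*, *CG11380* and *meru* fell short of it with 2.98, 2.93 and 2.64 CPM.

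Roles were assigned to 32 members, and 42 were left without one, 39 of which have only a CG number. A member left without a role is not thereby uncharacterized, and the sizes of the groups below depend on this assignment. The plot of all members by library shows the groups apart for every gene, which the rule fixes (all 3 control values lay above all 3 knockdown values in 35.8% of the 7070 genes over 3 CPM), and differences among members in the distance between groups and in the spread within the control group.

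**Figure D2:**
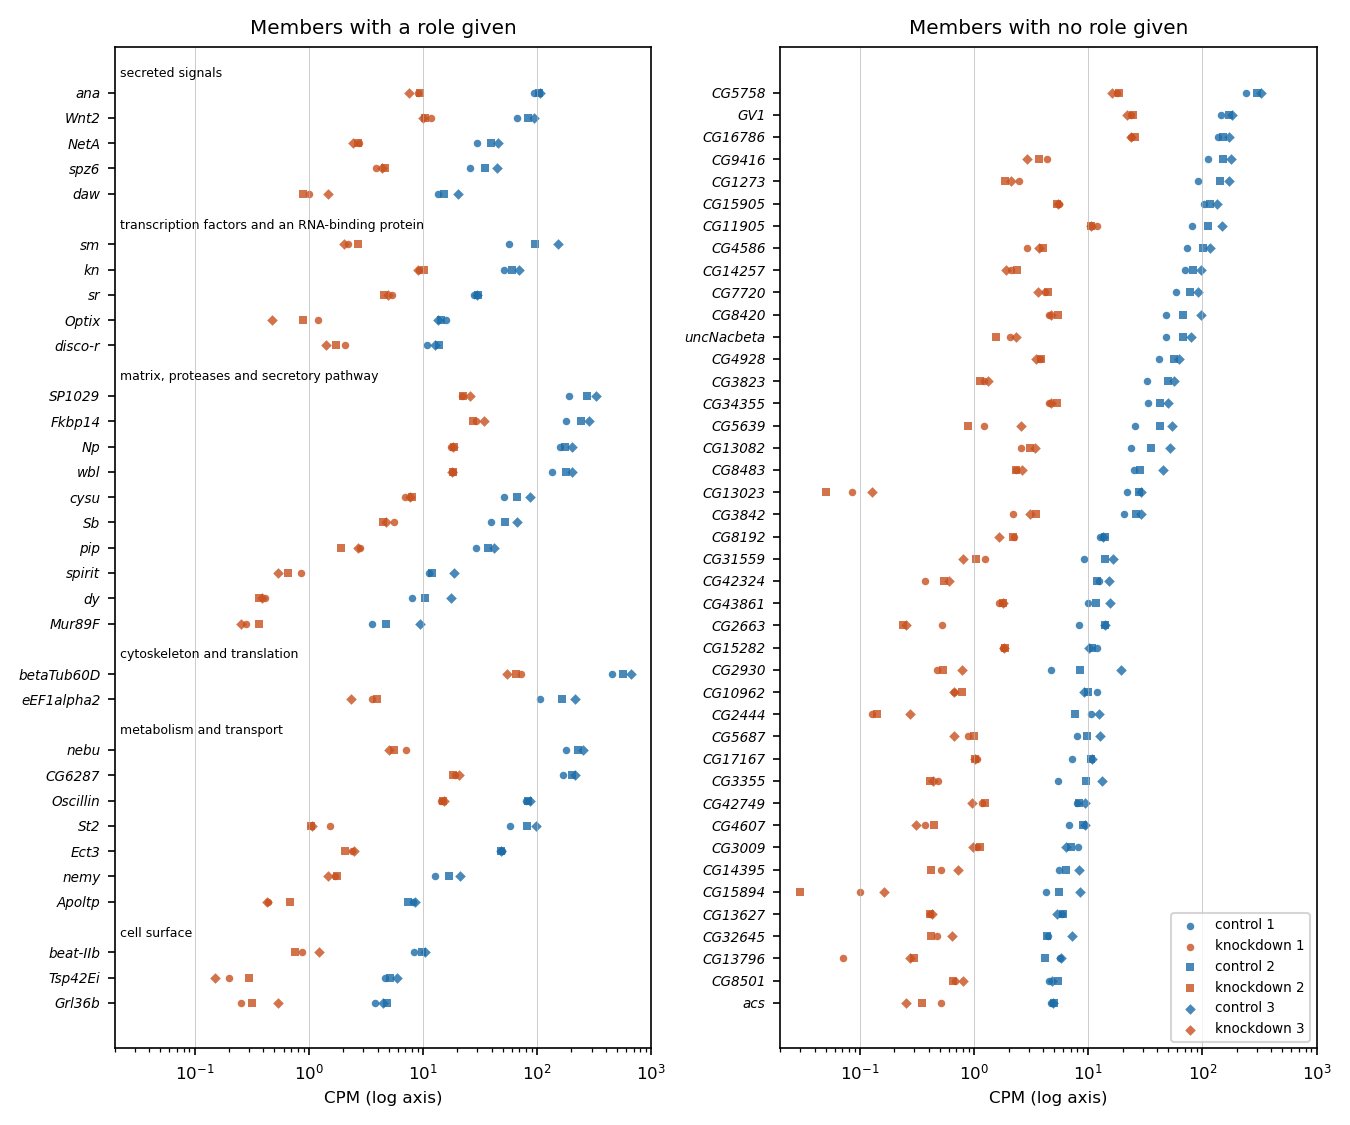
Level of each of the 74 members in each library, in CPM on a log axis, with 32 members grouped by role on the left and 42 with no role given on the right. Blue marks are control and orange marks knockdown libraries, with circle, square and diamond for libraries 1, 2 and 3. For most genes the diamond of control 3 lies to the right and the circle of control 1 to the left.

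Among secreted signals, 5 members covered 5 protein families. *Wnt2* (chromosome 2R), which encodes a Wnt ligand, was at 66.3, 82.8 and 94.1 CPM in the control libraries and at 11.7, 10.4 and 9.91 CPM in the knockdown libraries. *NetA*, which encodes a Netrin, an axon guidance cue, was at 29.5, 39.4 and 45.4 CPM against 2.76, 2.69 and 2.43 CPM, and *daw*, the gene of the Activin-like ligand Dawdle, was at 13.5, 15.3 and 20.2 CPM against 0.995, 0.888 and 1.49 CPM. Both stood about as far apart between the groups, with ratios of 14.5 for *NetA* and 14.6 for *daw*. *spz6*, of the Spätzle family of Toll receptor ligands, was at 25.9, 35.1 and 44.8 CPM against 3.90, 4.62 and 4.40 CPM. *ana*, which encodes a secreted glycoprotein known from glia of the larval brain, was at 94.2, 103 and 107 CPM against 9.13, 9.35 and 7.60 CPM, and it overlaps a noncoding gene on the other strand. The ratios of this group ran from 7.61 (*Wnt2*) to 14.6, so that none was past 20. In all 5 genes control 1 was the lowest and control 3 the highest control library.

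Of 5 regulators of gene expression, 4 were transcription factor genes and 1 encodes an RNA-binding protein. *kn* (2R, 14772650 to 14807061), whose product patterns the region between the central wing veins, was at 51.0, 60.3 and 69.6 CPM in control discs and 9.31, 10.2 and 8.96 CPM after knockdown. *sr*, which specifies the tendon cells that anchor flight muscles, was at 28.0, 30.3 and 29.8 CPM against 5.40, 4.57 and 4.93 CPM. The zinc finger gene *disco-r* was at 10.8, 13.9 and 12.7 CPM against 2.09, 1.75 and 1.42 CPM. These 3 transcription factor genes were among the members with the smallest ratios, 6.36 for *kn*, 5.91 for *sr* and 7.12 for *disco-r*. *Optix*, a homeobox gene that also acts in wing patterning, had a ratio of 17.1, from 15.8, 14.5 and 13.6 CPM in control to 1.208, 0.888 and 0.473 CPM in knockdown discs. *sm*, which encodes an RNA-binding protein related to mammalian hnRNP L, stood apart from these factors. It was at 57.2, 95.8 and 153 CPM in the control libraries and at 2.19, 2.70 and 2.02 CPM in the knockdown libraries, a ratio of 44.3. Its control libraries differed among themselves by up to 2.68-fold, whereas those of *sr* stayed within 28.0 to 30.3 CPM.

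The largest group with a role held 10 genes of the extracellular matrix, of proteolysis and of the secretory pathway. *Sb* (Stubble; 3R, 16116161 to 16145284) and *Np* (Notopleural; 2R, 8992945 to 9006587) encode transmembrane serine proteases that are needed for matrix remodeling as appendages take shape. *Sb* was at 39.4, 52.1 and 67.0 CPM against 5.56, 4.43 and 4.71 CPM, and it overlaps *Mic26-27* on the other strand. *Np* was at 159.7, 174 and 204 CPM against 17.5, 18.5 and 18.3 CPM. Both proteases were thus about 10 times higher in control discs, with ratios of 10.8 and 9.90. *SP1029*, an aminopeptidase gene, was at 190.1, 272 and 328 CPM against 21.9, 22.6 and 25.7 CPM. *spirit*, a serine protease gene of the Toll pathway in immunity, was at 11.4, 12.0 and 18.8 CPM against 0.853, 0.659 and 0.542 CPM.

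*dy* (dusky) and *Mur89F* belong to the apical matrix. *dy* encodes a zona pellucida protein that shapes wing cells and was at 8.09, 10.3 and 17.8 CPM in control discs and 0.412, 0.369 and 0.392 CPM in knockdown discs, a ratio of 30.8. *Mur89F*, a mucin-related gene that overlaps *CG5292* on the other strand, was at 3.55, 4.73 and 9.41 CPM against 0.284, 0.369 and 0.254 CPM. In both genes control 3 lay well above the other 2 control libraries, and the knockdown libraries lay within a narrow range. *cysu*, which encodes a heme peroxidase needed for the adult wing, was at 50.9, 66.9 and 87.2 CPM against 6.94, 8.08 and 7.76 CPM.

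*pip* and *wbl* are known together from the ovary, where the sulfotransferase Pipe and the endoplasmic reticulum protein Windbeutel, on which Pipe depends to reach the Golgi, set the dorsoventral axis of the embryo. In the discs, *wbl* was at 136, 179 and 203 CPM against 18.3, 18.5 and 18.1 CPM, a ratio of 9.43. *pip*, which overlaps *fal* on the other strand, was at 29.0, 37.2 and 41.7 CPM against 2.80, 1.91 and 2.71 CPM, a ratio of 14.6. Of 6 other genes of the same axis pathway, picked after their values were seen, none met the rule. The ligand gene *spz* was at 4.53, 5.40 and 6.19 CPM in the control libraries against 2.05, 1.58 and 2.18 CPM, and the receptor gene *Tl* at 147, 161 and 173 CPM against 57.7, 58.1 and 58.7 CPM. These 2 genes had ratios of 2.78 and 2.76 and the same order of the control libraries as *pip* and *wbl*. *ndl* and *snk* stayed under 0.5 CPM in every library, *gd* was at 1.10 to 1.60 CPM in control discs and 2.69 to 4.58 CPM in knockdown discs, and *ea* was at 8.10 to 14.7 CPM against 21.9 to 24.7 CPM. *Fkbp14*, which encodes a prolyl isomerase of the endoplasmic reticulum, was at 178, 243 and 285 CPM against 29.0, 27.5 and 34.6 CPM.

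The member with the highest control level was *betaTub60D* (2R, 24305881 to 24313099), which encodes the beta3 isotype of tubulin, best known from developing muscle. It was at 452, 571 and 669 CPM in the control libraries and 72.1, 65.3 and 53.9 CPM in the knockdown libraries. The general tubulin gene *betaTub56D* was at 3734 to 4006 CPM in control discs and 2691 to 2902 CPM in knockdown discs. *eEF1alpha2*, a second gene of the elongation factor that brings aminoacyl-tRNA to the ribosome, was at 105, 165 and 215 CPM against 3.60, 3.98 and 2.33 CPM, a ratio of 49.0. Its more abundant paralog *Ef1alpha48D* was at 13572 to 13814 CPM in control discs and 14248 to 14955 CPM in knockdown discs. In both pairs the less expressed paralog carried the pattern, and reads that the paralogs share may have been split between them.

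Of 7 genes of metabolism and transport, *St2* and *nebu* stood furthest apart between the groups. *St2* (3R, 9251843 to 9253514), a sulfotransferase gene, was at 57.8, 81.0 and 98.1 CPM in control discs and 1.54, 1.05 and 1.07 CPM in knockdown discs, a ratio of 64.8. *nebu*, annotated as a sugar transporter gene, was at 181, 229 and 253 CPM against 7.09, 5.60 and 5.01 CPM, a ratio of 37.4. *CG6287*, annotated as a phosphoglycerate dehydrogenase, the enzyme that opens serine synthesis, was at 169.6, 200.3 and 215 CPM against 19.0, 18.5 and 20.9 CPM. *Oscillin*, which encodes a glucosamine-6-phosphate isomerase, had the smallest ratio of all members, 5.61, with 80.7, 82.9 and 87.4 CPM against 14.3 to 15.4 CPM. *Ect3*, annotated as a beta-galactosidase gene, was at 48.9, 48.6 and 48.3 CPM in control, the smallest relative spread of any member, and at 2.39, 2.08 and 2.48 CPM in knockdown discs. *nemy*, of the cytochrome b561 family, had a ratio of 10.3.

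*Apoltp* encodes an apolipoprotein of lipid transfer particles that the fat body secretes. It was at 8.17, 7.36 and 8.44 CPM in control discs and 0.441, 0.689 and 0.426 CPM in knockdown discs. Control 1, which held the most RNA of larval serum protein genes, did not hold the most RNA of *Apoltp*. The part of fat body RNA in the level of *Apoltp* was not tested. Genes of the cell surface were *beat-IIb*, of the Beaten path family of adhesion proteins, *Tsp42Ei*, a tetraspanin gene, and *Grl36b*, a gene of the gustatory receptor-like family. All 3 were low in control discs, at 3.80 to 10.3 CPM, and at 0.150 to 1.22 CPM in knockdown discs.

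The 42 members with no role given had a median ratio of 14.5, close to the 13.6 of the whole set. *CG13023* (3L, 16923914 to 16927434) stood furthest apart of all members, at 21.8, 27.8 and 29.1 CPM in control discs and 0.0853, 0.0499 and 0.127 CPM in knockdown discs. The knockdown values are 6, 5 and 11 counts, so that the ratio of 300.3 is imprecise, and *CG13023* overlaps *CG13028* on the other strand. *CG1273* was at 91.4, 143 and 170.0 CPM against 2.47, 1.86 and 2.09 CPM, a ratio of 63.0. *CG15894* was at 4.23, 5.55 and 8.38 CPM against 0.0995, 0.0299 and 0.161 CPM, a ratio of 62.5 that rests on 7, 3 and 14 knockdown counts. *CG2444*, which overlaps *PhKgamma* on the other strand, had 10.6, 7.63 and 12.4 CPM against 0.128, 0.140 and 0.277 CPM. These 4 genes, together with *St2*, had the largest ratios of the set, and 3 of the 5 were under 30 CPM in every control library. *CG9416* had a ratio of 40.5, with 111, 153 and 178 CPM in control discs, and overlaps *CG10051* on the other strand. *CG14257*, *CG3823* and *CG2663* followed, with ratios of 38.9, 37.9 and 35.7.

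The most abundant unnamed member was *CG5758* (2L), at 241, 299 and 329 CPM in control discs and 17.8, 18.6 and 16.1 CPM in knockdown discs. *GV1* was at 147, 171 and 180.4 CPM against 23.4, 24.7 and 21.6 CPM, and *CG16786* at 138, 152 and 171 CPM against 23.4, 25.4 and 23.5 CPM. These 2 genes kept more of their control level than most members, with ratios of 7.15 and 6.37. *CG15905* was at 103, 116 and 133 CPM against 5.56, 5.35 and 5.43 CPM, and *CG11905* at 81.1, 112 and 149.8 CPM against 11.8, 10.7 and 10.5 CPM. *CG4586*, *CG7720*, *uncNacbeta* and *CG4928* were at 53.5 to 96.7 CPM on average in control discs, with ratios of 14.5 to 32.5. *CG34355*, *CG5639*, *CG13082* and *CG8483* followed at 32.6 to 41.8 CPM, with ratios of 8.64 to 26.0. *CG31559*, *CG42324*, *CG43861*, *CG15282*, *CG10962* and *CG5687* had mean control levels of 10.1 to 13.2 CPM, and *CG17167*, *CG42749*, *CG4607*, *CG3009*, *CG14395*, *CG13627*, *CG32645*, *CG13796*, *CG8501* and *acs* lay under 10 CPM. The lowest ratio in this group was 5.99 (*CG15282*).

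The order of the control libraries was not used by the rule, and the members shared it. In 56 of 74 members (75.7%), control 1 was the lowest and control 3 the highest control library, whereas 16.9% of the 6996 other genes over 3 CPM in every control library had this order. The opposite order was found in 5 members (6.76%) and 37.8% of the other genes. The median ratio of control 3 to control 1 was 1.49 over the members and 0.962 over the other genes, and it was over 1.2 in 56 members (75.7%) and 4.05% of the other genes. With TMM scaling, a setting added after the values were seen, 61 members (82.4%) and 29.0% of the other genes had the order. The opposite order was then found in 4 members (5.41%) and 23.7% of the other genes. The median ratio of control 3 to control 1 was then 1.55 over the members and 1.005 over the other genes. Genes are not independent replicates, 3 libraries allow no test of their order, and these figures are a description of these libraries.

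**Figure D3:**
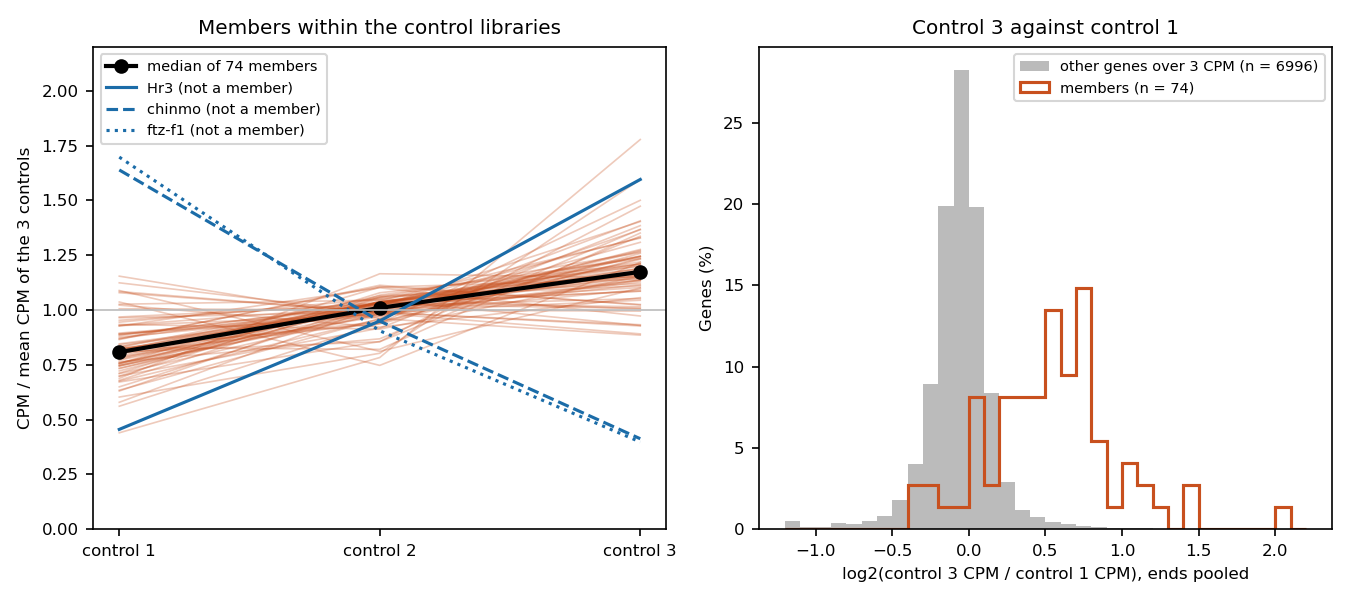
Left, level of each of the 74 members in the 3 control libraries as a ratio to its control mean (thin lines), their median (black line with points) and 3 genes that are not members (blue). Right, the share of genes, in percent, by the log2 ratio of control 3 to control 1, for the members (orange outline) and the 6996 other genes over 3 CPM in every control library (gray). The median member runs from 80.8% of its control mean in control 1 to 117% in control 3, and the members lie mostly to the right of the other genes.

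Relative to its own control mean, the median member stood at 80.8% in control 1, 101% in control 2 and 117% in control 3. The order held without control 1. Control 3 was above control 2 in 61 members (82.4%) and in 34.5% of the other genes, with median ratios of 1.15 and 0.974. With TMM scaling it was above in 65 members (87.8%) and in 51.8% of the other genes, with median ratios of 1.19 and 1.003. In the knockdown libraries, the order from 1 up to 3 was found in 8 members (10.8%) and 15.2% of the other genes. The relative spread of the control group was wider in members than in other genes as well. The median coefficient of variation (the SD divided by the mean) was 19.8% in members and 4.68% in other genes, and over 20% in 36 members (48.6%) and 3.57% of the other genes. In the knockdown group it was 12.8% in members, whose levels there were low, and 3.32% in the other genes.

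The spread was not even over the members. *CG2930* varied most, with 4.73, 8.43 and 19.1 CPM in the control libraries and a coefficient of variation of 69.5%, and it overlaps *yin* on the other strand. *Mur89F* (52.5%), *sm* (47.3%), *dy* (42.0%) and *CG3355* (41.3%) came next, each lowest in control 1 and highest in control 3. All 10 genes of matrix, proteolysis and secretion and all 5 secreted signals had this order. At the other end stood *Ect3* (0.538%), *acs* (2.90%), *Oscillin* (4.07%), *sr* (4.19%) and *CG8192* (5.34%), whose control libraries hardly differed. The opposite order was seen in *Ect3*, *Optix*, *CG15282*, *CG10962* and *CG3009*. Of the transcription factor genes, *kn* alone had the order of the majority.

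Some genes of the ecdysone response that are not members differed among the control libraries in the same order or in the opposite one. *Hr3*, a nuclear receptor gene induced by ecdysone, was at 25.5, 53.2 and 89.4 CPM in the control libraries and at 0.127 to 0.227 CPM in the knockdown libraries. *ImpE2*, an ecdysone-induced gene of discs, was at 3938, 5561 and 6564 CPM against 5.82 to 13.1 CPM. Both met the thresholds of the rule and were set aside by name, and 10 of the 15 genes set aside had the same order. *chinmo*, whose BTB zinc finger protein marks early larval stages, ran the other way, with 40.4, 23.4 and 10.2 CPM in the control libraries and 748 to 756 CPM in the knockdown libraries. *ftz-f1*, a nuclear receptor gene of the mid-prepupal stage, was at 21.3, 11.3 and 4.99 CPM against 101 to 112 CPM. These 4 genes were picked after their values were seen. Other genes of the response had neither order, such as *br*, at 2802, 3121 and 2936 CPM in the control libraries. The 17 matched ecdysone receptors and early genes, *br* included, summed to 5659, 6257 and 6155 CPM in controls 1, 2 and 3. The part of developmental stage in the members' order was not tested, and between the groups a difference in stage and the knockdown cannot be told apart.

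Summed levels of genes listed for other tissues also differed among the control libraries, by far the most for fat body. The 16 matched fat body genes summed to 3879 CPM in control 1, which is 0.388% of its counts, and to 124 and 157 CPM in controls 2 and 3 and 168 to 200 CPM in the knockdown libraries, and 4 of them were under 1 CPM in every library. The 16 hemocyte genes, 2 of them under 1 CPM throughout, summed to 1452, 1677 and 1821 CPM in controls 1, 2 and 3 and to 896 to 955 CPM in the knockdown libraries. *Ppn* carried this sum, and the other 15 genes ran the other way, with 382, 287 and 200.3 CPM in the control and 408 to 443 CPM in the knockdown libraries. The 14 genes of trachea and air sac, 1 of them under 1 CPM throughout, summed to 3194, 3545 and 3789 CPM against 3291 to 3513 CPM. Without *shg*, the most abundant of them, the sums were 2304, 2588 and 2809 CPM against 2402 to 2594 CPM. Another of them, *pio*, at 685, 866 and 951 CPM against 324 to 332 CPM, is also listed under apical matrix, so these sums are not specific to trachea. The 19 genes of myoblasts and muscle summed to 988, 1038 and 1055 CPM against 993 to 1015 CPM. Without *sls*, the most abundant of these, the sums were 835, 890.3 and 927 CPM against 608 to 620.1 CPM. These sums without a gene were added after the values were seen. Over the 25 genes of the wing disc epithelium the sums were 6511, 6501 and 6456 CPM in control discs and 5343 to 5523 CPM in knockdown discs. The part of these tissues in the members' levels was not tested.

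Members lay on all major chromosome arms, 12 on 2L, 17 on 2R, 9 on 3L, 19 on 3R and 17 on X, and none lay on chromosome 4. X carried 23.0% of the members and 17.0% of 6813 other protein-coding genes over the control minimum, and 3L 12.2% against 20.0%. Within 20 kb of another member lay 11 members, in 6 pairs. *Grl36b* (2L, 18124098 to 18125749) lies inside the span of *CG5758* (18119995 to 18129862) on the other strand, at 4.38 CPM on average in control discs against 289 CPM, and the exons of the pair do not overlap. *CG8420* ends 411 bases before *St2* starts, on the same strand, and the pair ran in parallel, with 47.9, 68.1 and 97.0 CPM for *CG8420* in control discs. *CG13023* and *CG11905* are 0.946 kb apart on 3L. *CG3823*, *CG15894* and *CG3842* follow each other on X (from 6303975 to 6343731). Between the last pair lies *CG42240*, no member, with 52.4 to 66.2 CPM in control discs and 18.0 to 18.9 CPM in knockdown discs. *sm* and *CG15905* are 14974 bases apart on 2R, and the 4 coding genes between them were under 0.5 CPM in every library.

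Member genes spanned a median of 7.14 kb, against 3.03 kb for the other coding genes over the control minimum. Their longest annotated proteins had a median of 528 amino acids, against 491, and ran from 79 (*CG15282*) to 4333 amino acids (*Apoltp*). Exons of 14 members (18.9%) overlap a gene on the other strand, beside 37.0% of the other coding genes, and 3 more overlap a gene on the same strand. Strand was ignored in counting, so reads of an overlapping gene can keep a gene from meeting the rule. Nothing is read from the difference between these shares. Per length of exon, the control level was 10.4 CPM per kb at the median against 21.2 CPM per kb in the other genes. On that scale *betaTub60D* was the highest member, at 224 CPM per kb, followed by *CG6287* at 152 CPM per kb, and *Apoltp* was the lowest, at 0.599 CPM per kb.

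Lists of genes from pathways and cell types around the members were read from the fit over all genes, in which 11% of the genes were called lower and 15.6% higher. Members made up 1.05% of the genes over 3 CPM in every control library. At that share lists this short would hold few members or none, so nothing is read from a list without a member. Calls were made at a log2 fold change of at least 0.5 either way with an adjusted p under 0.05 from edgeR's quasi-likelihood test. Of 17 ecdysone receptors and early genes, 7 were lower and 4 were higher, and none was a member. The lower genes were *Blimp-1*, *Hr3*, *Hr4*, *Hr39*, *Eip75B*, *Eip78C* and *br*, and the higher ones *EcR*, *Hr38*, *chinmo* and *ftz-f1*. *Blimp-1*, a repressor that times the prepupal response, averaged 127 ± 36.9 CPM over the control libraries and 0.208 ± 0.0720 CPM over the knockdown libraries (SD, n = 3 each), and 4 of the 7 lower genes had been set aside from the members by name. In this list the log2 fold changes had a median of -0.29, beside 0.01 over all genes tested. Of 16 ecdysone-induced effectors, 7 were lower, 1 of them the member *Sb*, and 3 were higher, with a median of -0.84. Another of the 7, *Fbp1*, is a fat body gene as well and was at 331 CPM in control 1 against 7.44 and 34.2 CPM in the other control libraries. Without it 6 of 15 were lower and the median was -0.41, and its own call was lost with voom, with the replicate block and without any 1 of the knockdown libraries. Of 8 genes of ecdysone synthesis, transport and breakdown, 2 were lower, *shd* and *sad*, which encode hydroxylases of the last steps of synthesis, and 3 were higher, with a median of 0.53.

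**Figure D4:**
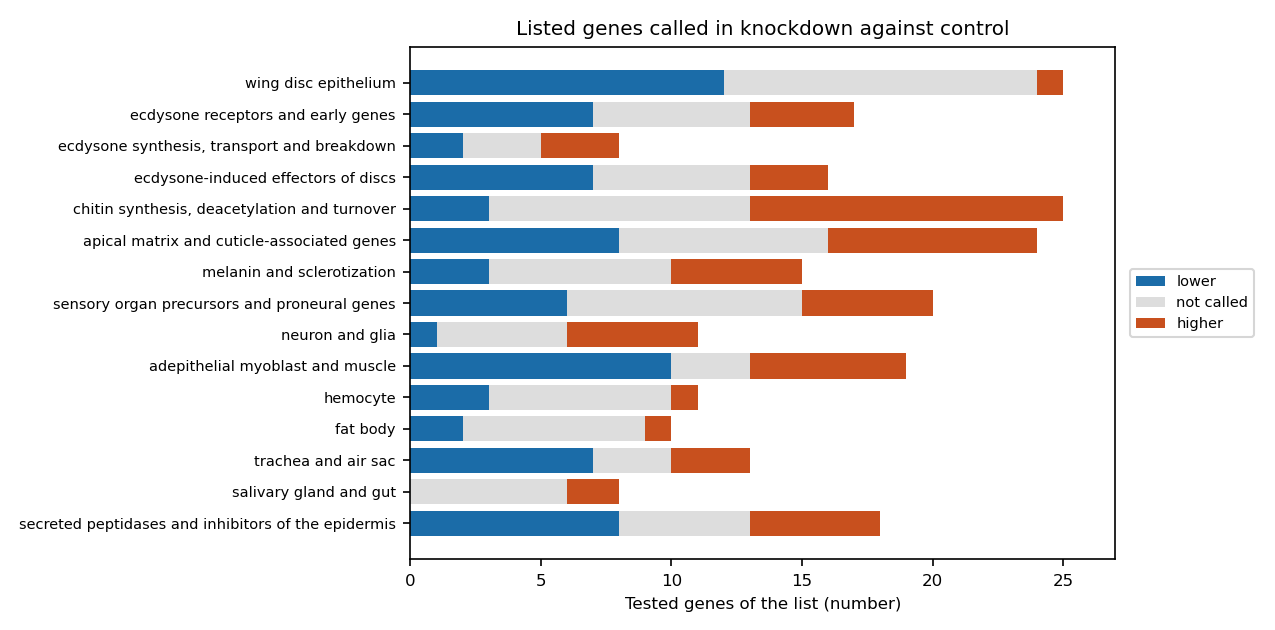
Number of tested genes in each of 15 lists (x axis) that were called lower (blue), not called (gray) or called higher (orange) in knockdown against control discs. The list of chitin genes has 12 higher and 3 lower, and that of the wing disc epithelium 12 lower and 1 higher.

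Genes of the apical matrix and of proteolysis moved in both directions. Of 24 apical matrix and cuticle-associated genes, 8 were lower, among them the member *dy*, and 8 were higher, with a median of 0.06. *dyl*, a paralog of *dy*, was among the higher ones. Of 18 secreted peptidases and inhibitors, 8 were lower, the members *Sb* and *Np* included, and 5 were higher, with a median of -0.14. *Timp*, *Mmp2* and *stl* were among the lower and *Mmp1* among the higher genes. Of 25 genes of chitin synthesis and turnover, 3 were lower and 12 higher, with a median of 0.34, and the chitinase gene *Cht10* averaged 2954 ± 388 CPM over the control libraries against 675 ± 30.1 CPM (SD, n = 3 each). Of 15 genes of melanin and sclerotization, 3 were lower and 5 higher, with a median of 0.04. The chitin and melanin lists held no member.

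Among cell type lists, 12 of 25 genes of the wing disc epithelium were lower and 1, *dpp*, was higher, with a median of -0.35, and none was a member. The list left out *kn* and *Optix*, members that act in wing patterning, so its lack of members depends on how it was written. The lower genes included *pnr*, *Dll*, *vg*, *nub* and the Iroquois genes *ara*, *caup* and *mirr*. Of 19 genes of adepithelial myoblasts and muscle, 10 were lower and 6 higher, with a median of -0.82. The lower ones were genes of myoblasts and of their fusion, such as *twi*, *Him* and *sns*, together with 2 actin genes, and the higher ones encode sarcomere proteins such as *Mhc*. Of 20 sensory organ genes, 6 were lower and 5 higher (median -0.04), of 13 tracheal genes 7 and 3 (median -0.56), of 11 hemocyte genes 3 and 1 (median 0.04), and of 11 neuronal and glial genes 1 and 5 (median 0.39). Without control 1, 4 hemocyte genes were higher, and without control 3 the lower neuronal gene, *futsch*, was not called. Of 10 fat body genes, 2 were lower, *Fbp1* and the member *Apoltp*, and 1 was higher, with a median of -3.69. Without control 2 or control 3, 6 were lower, and without control 1, 5 were higher. Without any 1 of the knockdown libraries 1 was lower, *Apoltp*. Of 8 genes of salivary gland and gut, 2 were higher (median -0.52), and 0 were lower, with edgeR as with DESeq2 and voom, and 0 also before adjustment of p in edgeR (p under 0.05). Without knockdown 2, 5 were lower.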

How the data were processed

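RNA-seq of wing discs was compared between *white* RNAi and *Nup98-96* RNAi, both with P35, in 3 libraries per group. The deposited counts per gene, which the authors did not normalize, came from Rsubread alignments to BDGP6 and from featureCounts. The libraries were directional but strand was ignored in counting, so strand could not separate reads of genes that overlap on opposite strands. Processing notes of the submitters name FastQC, edgeR 3.13.4 and limma as well. Fold changes, average expression and p-values in another deposited table of the authors were not used. Its gene names and positions were read for 120 identifiers, beside 17253 of 17559 found in a BDGP6 annotation.

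CPM was computed with column totals. The model over all genes was edgeR 4.0.16 (glmQLFit and glmQLFTest, R 4.3.3) with TMM and Benjamini-Hochberg, after a Jaccard similarity filter, written anew after the authors' method, whose minimum of 194 normalized counts left 7965 genes. Calls required a log2 fold change of 0.5 or more in size with adjusted p under 0.05. The steps were tested on simulated data with 200 changed genes. P-values reflect the spread among pools of discs. Alternatives were RLE size factors, no filter, filterByExpr, DESeq2 1.42.0, voom (limma 3.58.1), a replicate block, and fits without each library.

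The members, the gene lists and the rule for named genes were chosen with earlier results of these data known, and roles were assigned after the members were seen. Named are the 15 members with the highest control level, the 10 with the lowest ratio of the highest knockdown to the lowest control library, the 5 with the largest and the 5 with the smallest control spread, those next to the threshold, in a list or within 20 kb of another, and every other member by role or range. Listed symbols lacking a unique match were dropped. Replicates were more different than sampling noise allows (chi-square per degree of freedom of 12.8 at least), so 6 separate libraries entered. Promoter and protein sequences were not analysed here.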

Additional observations from a re-analysis of the deposited data

How the results depend on the processing

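All 74 members were called lower under each alternative, and their direction held in 888 of 888 alternative log2 fold changes. Both follow from the rule, which used the same contrast, and nothing is read from them. Of 410 alternative values for 36 counts, 383 stayed within 1.5 times the count reported. The number of genes the rule takes depended on its thresholds. It was 131 with 33.3% in place of 20%, 33 with 10%, 49 with a control minimum of 10 CPM, 92 with 1 CPM, 75 with TMM scaling and 75 to 91 without a single library. Leaving out a library, like a looser threshold, can only add genes. The order of the control libraries was shared by 56 members, and by 61 with TMM scaling. Members within reach of another numbered 8 at 5 kb and 15 at 50 kb.

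With no filter and with filterByExpr, 1950 and 1873 genes were higher, 14 and 14 sensory organ genes were lower, as were 2 and 2 neuronal and 6 and 5 hemocyte genes, and 5 and 5 genes of salivary gland and gut were higher. With voom, 2 hemocyte genes were higher and 1 fat body gene was lower. Without a single library, the lower genes numbered 0 to 1 for neurons and glia, 1 to 6 for fat body and 0 to 5 for salivary gland and gut, and the higher genes 1 to 4 for hemocytes and 1 to 5 for fat body. Among other named genes, 603 of 610 alternative values kept their call, and the 7 that lost it were those of *Fbp1*, *Hr3* with voom and *futsch*. The cause was not tested.

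The labels state no pairing of the samples by replicate number. Deviations of same-numbered libraries correlated at -0.18, 0.017 and -0.021, and those of libraries with unlike numbers at -0.19 to 0.21. With 3 libraries per group these values cannot settle whether the numbers pair the samples. With the replicate number as a block, 855 genes were lower and 1241 higher, and all 74 members were lower, as follows from the rule. In that fit 2 hemocyte genes were higher and 1 fat body gene was lower. Depth limits the members with few knockdown counts, such as *CG15894*, whose lowest knockdown count was 3, and counting error is the least their ratios carry. The planned share of promoters with a motif was not run.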
